A study of Mus musculus with 12 samples.

Results

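The intervals described here carried a smaller share of the H3K27ac signal of their library with acetate than without it, in all 6 pairs of libraries. The pairs are formed by name suffix only. Acetylation of histone H3 at lysine 27 was mapped by chromatin immunoprecipitation and sequencing in 4T1, a single mouse mammary carcinoma line, and the deposited table gives a spike-in scaled signal for 126464 genomic intervals in 12 libraries. The signal of each interval was divided by the sum of its library, which gives a share (printed in parts per 1000000 of the library signal, ppm), and the 24109 intervals with a mean scaled signal of at least 50 were kept. Members were selected on the acetate ratio itself: 1235 intervals had a share ratio (with acetate over without) below 1 in all 6 pairs, which is 5.12% of the kept intervals, and a further 2045 had a ratio above 1 in all 6. Values of this ratio are therefore descriptions and carry no test.

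The wild-type cells received vehicle (V), 5 mM acetate (A), 50 µM etomoxir (E), etomoxir with acetate (EA), etomoxir with 50 µM SB204990 (ESB), or etomoxir, SB204990 and acetate together (ESBA), each for 48 h, with 2 libraries per treatment. One library of each treatment carries the first suffix in its name (set 1) and the other the second (set 2), and neither the meaning of the suffix nor whether the sets came from separate cultures is given. The pairs are A/V, EA/E and ESBA/ESB within each set.

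Acetate enters metabolism as acetyl-CoA, which is both the donor for histone acetylation and the carbon source of fatty acids and sterols. Etomoxir blocks carnitine palmitoyltransferase 1, the step that admits long-chain fatty acids to mitochondria, and SB204990 blocks ATP citrate lyase, which makes cytosolic acetyl-CoA from citrate. H3K27ac is found at active promoters and at distal enhancers.

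Reads within intervals ranged from 7179165 to 16676442 per library, with a median of 169 to 350 reads per member. Intervals at the start sites of all 10 epithelial markers examined, among them Krt8, Krt18, Cdh1 and Epcam, had mean scaled signals of 404 to 4048, whereas of 7 markers of blood, endothelial, liver and neural cells only Pecam1 had an interval at its start site, with a mean of 12.1. The ESB library of set 2 stood apart from the others. It had the fewest reads, 81.8% of its signal in kept intervals against 85.9 to 89.6% in the other libraries, and 45.3% in kept intervals covering the start of a protein-coding gene against 49.6 to 54.4%. It is the denominator of 1 of the 6 pairs, so the count, GC content, position, length and clustering of the members, the counts of the main gene lists and the inhibitor calls are given with and without it; motif and chromosome shares are given with it only.

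The sequences at the centres of the 6 members with the lowest mean ratio, and of the 2 with the highest signal, are shown as examples from both ends of the range of signal. Each is 300 bases of the mouse GRCm38 (mm10) assembly from RefSeq, centred on the midpoint of the interval or, for the first Gm49498 interval, on a start site within it. Capitals mark CG dinucleotides and matches to TGANTCA, the core recognised by AP-1, a dimer of Fos and Jun family proteins. Names are those of the nearest gene in the authors' annotation.
Pfn4, chr12:4792884-4793183, plus strand: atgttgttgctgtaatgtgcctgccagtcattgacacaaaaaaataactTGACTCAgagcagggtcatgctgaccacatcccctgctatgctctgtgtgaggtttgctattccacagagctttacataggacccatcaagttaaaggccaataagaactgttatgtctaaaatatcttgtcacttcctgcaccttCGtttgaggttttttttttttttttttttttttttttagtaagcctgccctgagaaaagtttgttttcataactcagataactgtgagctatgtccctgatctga
4930527B05Rik, chr11:81262859-81263158, plus strand: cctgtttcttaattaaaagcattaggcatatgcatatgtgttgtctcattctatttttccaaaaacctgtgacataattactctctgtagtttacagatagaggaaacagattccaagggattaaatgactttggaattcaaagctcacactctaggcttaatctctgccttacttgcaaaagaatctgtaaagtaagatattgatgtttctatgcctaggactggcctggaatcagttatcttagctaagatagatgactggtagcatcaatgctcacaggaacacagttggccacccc
Trbv31, chr6:41553939-41554238, plus strand: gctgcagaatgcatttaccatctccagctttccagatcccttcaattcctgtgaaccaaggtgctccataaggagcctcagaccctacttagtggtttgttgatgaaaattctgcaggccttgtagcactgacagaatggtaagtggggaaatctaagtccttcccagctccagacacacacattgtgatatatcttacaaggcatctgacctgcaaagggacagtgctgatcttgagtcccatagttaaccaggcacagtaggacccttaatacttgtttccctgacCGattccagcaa
Slc8a1, chr17:82087050-82087349, plus strand: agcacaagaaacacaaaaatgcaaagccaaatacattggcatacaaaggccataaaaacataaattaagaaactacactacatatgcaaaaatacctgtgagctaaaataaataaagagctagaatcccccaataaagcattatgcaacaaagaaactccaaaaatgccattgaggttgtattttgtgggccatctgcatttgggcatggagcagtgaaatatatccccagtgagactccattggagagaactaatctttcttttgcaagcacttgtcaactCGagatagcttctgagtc
Msl3l2, chr10:55522738-55523037, plus strand: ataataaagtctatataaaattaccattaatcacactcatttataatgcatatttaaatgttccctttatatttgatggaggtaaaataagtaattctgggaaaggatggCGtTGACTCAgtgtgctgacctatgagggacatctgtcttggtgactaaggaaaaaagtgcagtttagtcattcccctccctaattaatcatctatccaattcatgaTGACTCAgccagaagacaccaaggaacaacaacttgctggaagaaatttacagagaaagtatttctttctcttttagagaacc
Gm26873, chr17:17398396-17398695, plus strand: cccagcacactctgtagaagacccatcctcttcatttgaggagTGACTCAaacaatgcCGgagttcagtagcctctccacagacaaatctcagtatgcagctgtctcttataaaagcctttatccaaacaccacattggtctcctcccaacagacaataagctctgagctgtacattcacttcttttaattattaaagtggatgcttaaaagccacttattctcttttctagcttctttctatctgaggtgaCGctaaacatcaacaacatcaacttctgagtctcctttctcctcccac
Gm49498, interval with its start site, chr15:61544033-61544332, minus strand: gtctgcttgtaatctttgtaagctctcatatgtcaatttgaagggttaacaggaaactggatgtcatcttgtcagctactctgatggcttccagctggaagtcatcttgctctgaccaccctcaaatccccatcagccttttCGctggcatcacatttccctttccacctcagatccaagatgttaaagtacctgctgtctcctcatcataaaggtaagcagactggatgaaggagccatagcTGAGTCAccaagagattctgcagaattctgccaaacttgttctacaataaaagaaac
Gm49498, upstream interval, chr15:61611345-61611644, plus strand: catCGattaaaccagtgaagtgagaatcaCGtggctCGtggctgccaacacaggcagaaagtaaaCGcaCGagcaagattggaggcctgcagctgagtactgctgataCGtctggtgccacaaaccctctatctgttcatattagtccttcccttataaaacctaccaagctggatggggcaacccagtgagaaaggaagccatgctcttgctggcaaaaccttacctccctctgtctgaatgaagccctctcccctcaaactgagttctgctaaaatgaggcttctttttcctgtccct

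The 6 windows of low ratio held from 0 to 2 CG dinucleotides each, with a GC content of 35 to 46.7%, and the windows at Pfn4, Msl3l2 and Gm26873 held 1, 2 and 1 copies of TGANTCA. The upstream Gm49498 window, at 49.3% GC, held 6 CG dinucleotides, and the window at its start site held 1. The windows at Trbv31 and upstream of Gm49498 lay above the median GC content of all kept intervals, 46.4%, and the other 6 below it.

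The loss of share was small in each of the 3 inhibitor backgrounds. Without inhibitor the median share ratio of the members was 0.897 in set 1 and 0.881 in set 2. It was 0.895 and 0.875 with etomoxir, and 0.891 and 0.906 with etomoxir + SB204990. All kept intervals had medians of the log2 share ratio between -0.00 and 0.03 in the same pairs. Members together carried 4.45 to 4.67% of the signal in the 6 libraries without acetate and 3.98 to 4.11% in the 6 with acetate, a difference that follows from how they were selected. The mean log2 ratio over the pairs ran from -0.57 to -0.03 with a median of -0.18, beside a median standard deviation over the 6 pairs of 0.11 and a median counting error of the mean of 0.05. In 85 members every ratio was below 0.9, and in 383 every ratio was below 0.95.

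In most members a smaller share was not a smaller scaled signal. After spike-in scaling the median member ratio without inhibitor was 1.32 (set 1) and 1.15 (set 2), beside 1.48 and 1.31 over all kept intervals. With etomoxir it was 1.52 and 1.44, beside 1.72 and 1.67. With etomoxir + SB204990 it was 1.43 and 1.42, beside 1.63 and 1.57. The scaled signal was higher with acetate in all 6 pairs at 1065 of the 1235 members (86.2%), beside 95.1% of all kept intervals. It was lower in all 6 at 0 members and at 0 kept intervals. In each pair the members' median scaled ratio was above 1 and below that of all kept intervals. The level of these ratios rests on the spike-in factors, which move every interval of a library alike.

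**Figure D1:**
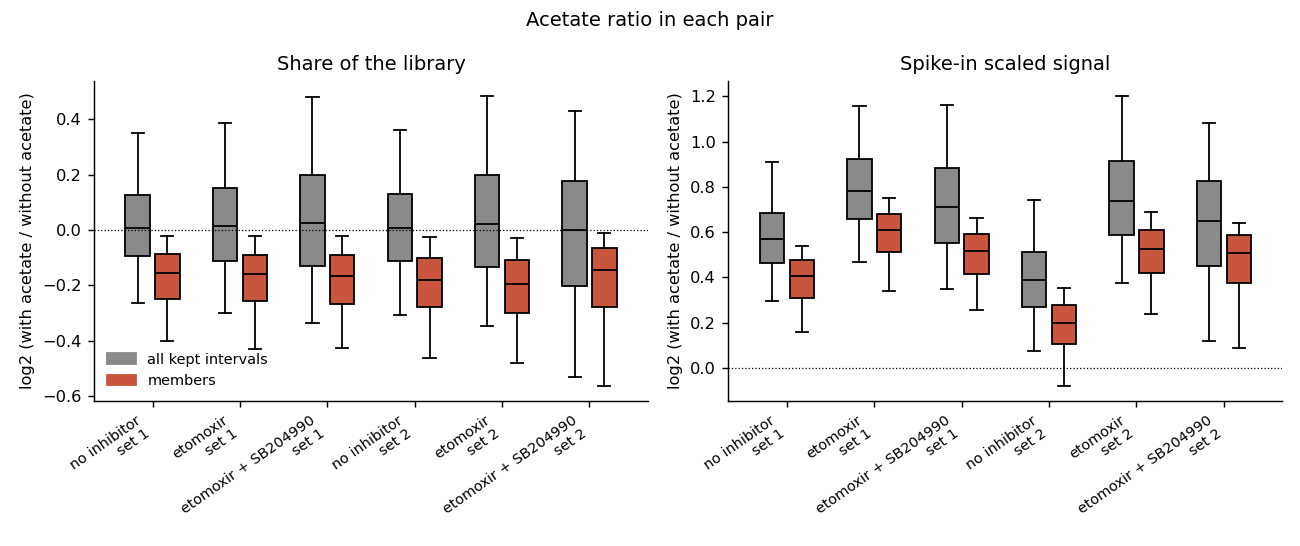
Acetate ratio on a log2 scale in each of the 6 pairs, for all 24109 kept intervals (grey) and the 1235 members (red), as library shares (left) and as spike-in scaled signal (right). Boxes give the quartiles and median, and whiskers the 5th and 95th percentiles; the members lie below 0 on the left because they were chosen so, and mostly above 0 on the right.

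The same direction in both sets selected a minority of what each set gave alone. All 3 ratios were below 1 at 5475 kept intervals in set 1 (22.7%) and at 2973 in set 2 (12.3%). The 1235 shared intervals were 22.6% of the first and 41.5% of the second. Leaving out the ESBA/ESB pair of set 2 raised the count to 3514, and leaving out any other single pair gave 1491 to 1610. At the edge of the rule, the members next to Nt5dc1 and Uvrag had a largest ratio of 0.999963 and 0.999944, and the intervals next to Mrps14 and Cbr4 missed it at 1.000106 and 1.000199. The lowest means inside were 50.0118 (Rnf138rt1) and 50.0120 (Gm45435), and the highest means outside were 49.7009 (Gm15991) and 49.4789 (Gm47389).

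The members had a low GC content, with and without the pair that stood apart. The median GC content was 44.01% in the members, 46.4% in all kept intervals and 47.9% in the intervals that gained share in all 6 pairs. Among kept intervals sorted into deciles by GC content, members made up 12.4% of the lowest decile (30.0 to 41.0% GC) and 1.204% of the highest (52.6 to 72.8%). Without the ESBA/ESB pair of set 2, the intervals below 1 in the other 5 pairs made up 18.9% of the lowest decile and 6.10% of the highest, with a median GC content of 45.4%. The median log2 share ratio of all kept intervals also went from -0.09 to -0.01 in the lowest decile to between 0.06 and 0.10 in the highest decile over the 6 pairs. GC content therefore moved with the ratio in each pair of libraries. When the median ratio of each of 50 GC bins was subtracted in each pair, an alternative chosen after seeing the data, 1246 intervals passed the rule, of which 985 were members (79.8% of the members and 79.1% of the 1246). The part of base composition in the members' loss of share was not tested.

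Position along the genome depended on the pair that stood apart and on the scaling of the shares. Of the members, 422 (34.2%) were intergenic, 567 (45.9%) intronic and 144 (11.7%) at promoters by the authors' annotation, against 24.6%, 49.6% and 13.9% of all kept intervals. By the authors' annotation the median distance to the nearest start site was 22006 bp in the members and 12746 bp in all kept intervals. More than 100 kb from that site lay 203 members (16.4%), against 7.10% of all. A protein-coding start site was covered by 371 members (30.0%) and by 37.6% of all kept intervals. Without the ESBA/ESB pair of set 2 this turned round. Of the 3514 intervals below 1 in the other 5 pairs, 58.4% covered a protein-coding start site, 20.5% were at promoters, and the median distance was 7192 bp. In that pair the median log2 ratio of kept intervals in the nearest decile (within 624 bp of a start site) was 0.12, whereas it was -0.12 in the same pair of set 1 and between -0.10 and -0.01 in the other 4. The decile beyond 79765 bp held 10.7% members, beside 5.12% of all kept intervals, and by the 5 pairs 16.97%, beside 14.6%, while the nearest decile went from 5.27% to 23.4%. The deficit at start sites was also absent with GC-centred ratios, where 39.0% of the selected intervals covered a protein-coding start site at a median distance of 14438 bp, and with shares taken over kept intervals only, where 38.7% did at 16902 bp.

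**Figure D2:**
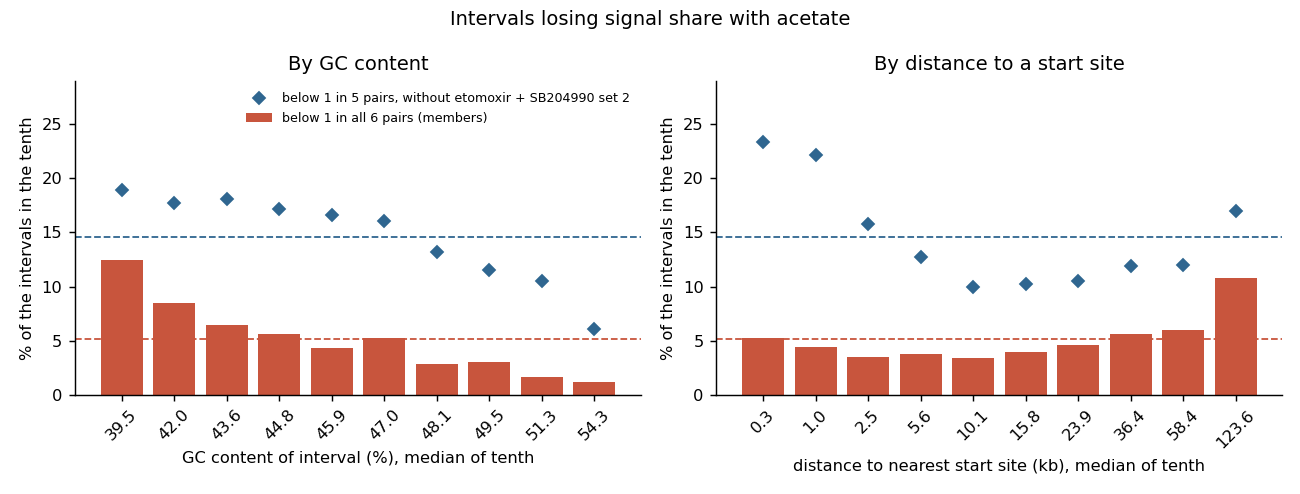
Percentage of the kept intervals in each decile of GC content (left) and of distance to the nearest start site (right) that lost share in all 6 pairs (red bars) or in the 5 pairs without the etomoxir + SB204990 pair of set 2 (blue diamonds); dashed lines are the percentages over all kept intervals, 5.12 and 14.6. Both percentages are lowest in the decile of highest GC content, whereas near start sites only the 5-pair rule is high.

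**Figure D3:**
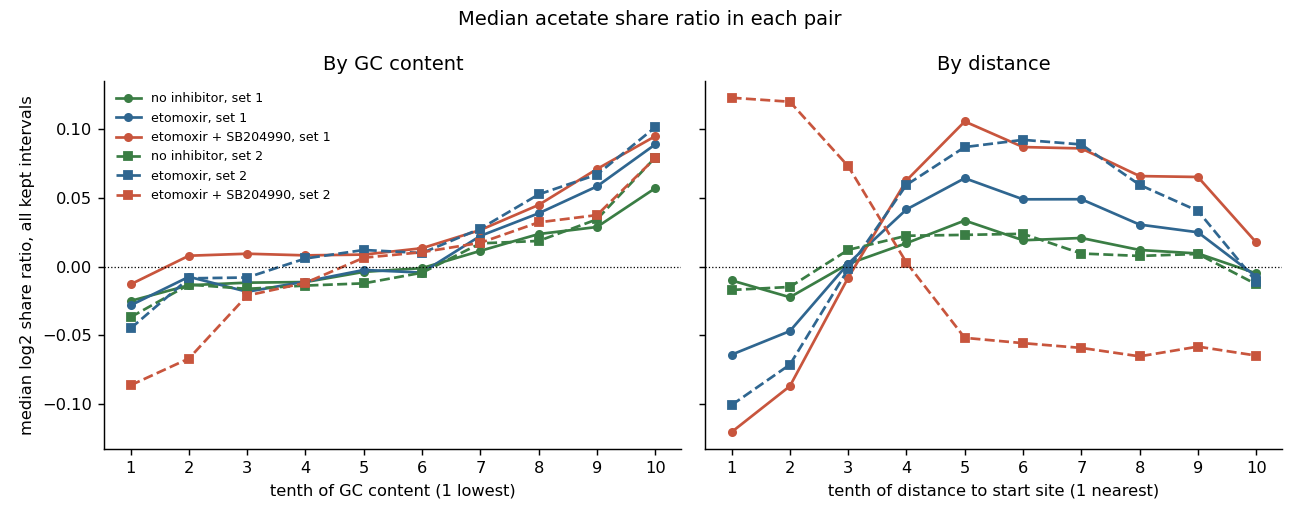
Median log2 share ratio of all kept intervals in each decile of GC content (left) and of distance to a start site (right), with 1 line per pair and dashed lines for set 2. The etomoxir + SB204990 pair of set 2 runs from 0.12 near start sites to -0.06 far from them, against the course of the other pairs.

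Within both of these classes of position the share of members was higher at low GC. Among intervals covering a protein-coding start site, members were 8.73% of the lowest quartile of GC content and 1.79% of the highest. A second class covered no such site and lay more than 100 kb from the nearest start site of the authors' annotation. There members were 164 of 1093 in the lowest quartile and 2 of 50 in the highest. The members had a median length of 5980 bp, close to the 5525 bp of all kept intervals, whereas the intervals gaining share had a median of 7848 bp. Without the pair that stood apart the median length was 7034 bp. Domains of 20 kb or more made up 5.18% of the members, 7.08% of all kept intervals and 16.4% of the intervals gaining share. The low share of long intervals turned round without that pair. In the longest decile (16287 bp or more) 4.52% were members, beside 5.12% of all kept intervals. By the 5 pairs it was 23.9%, beside 14.6%.

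The shares of members holding each of 6 motifs are given beside those of all kept intervals, without a test. In the central 300 bases, read on both strands, TGANTCA was present in 210 members (17.02%) and 13.5% of all kept intervals. GGGCGG, the GC box bound by Sp1, was present in 8.35% and 10.8%, and CCGGAAG, an ETS core, in 2.11% and 2.69%. The E-box CACGTG was found in 4.70% and 4.44%, GGAATG, the TEAD core, in 15.7% and 16.3%, and TGACGTCA, the cAMP response element, in 0.162% and 0.386%. These are matches of letters, not sites of binding.

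The members were spread over all autosomes and the X chromosome. They made up between 3.56% (chromosome 11) and 7.31% (chromosome X, 35 of 479) of the kept intervals of a chromosome, and chromosome 11 had the higher median GC content of the 2, at 47.8% against 44.6%. Another member lay within 100 kb of 27.3% of the members, whereas 15.3% of all kept intervals had a member within that distance. Among the 3514 intervals selected without the pair that stood apart 46.8% had another within 100 kb, whereas 41.5% of all kept intervals lay that near to one of them, so the gap was smaller. Most members stood alone in the order of kept intervals (919), and 120 adjacent pairs and 21 longer runs made up the rest. The longest run held 7 members at chr13:85398014-89455377, from Rasa1 to Hapln1. A run of 6 members at chr3:123556457-123758348 lay around Ndst3, which encodes a heparan sulfate sulfotransferase, with mean log2 ratios of -0.35 to -0.20. These stretches were noticed after their values were seen.

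The members with the lowest ratios covered no start site and had low signals. Pfn4, a profilin gene, gave its name to an intergenic interval at chr12:4791768-4794301, 24013 bp from its start site. Its share in ppm was 6.03, 5.85 and 7.89 in V, E and ESB of set 1 and 6.81, 6.78 and 8.64 in set 2, and it was 4.02, 4.10 and 5.12 in A, EA and ESBA of set 1 and 4.22, 5.20 and 5.54 in set 2. The values with acetate were the lower ones by selection, and the mean log2 ratio was -0.57 (SD 0.11 over 6 pairs). In scaled signal the ratio without inhibitor was below 1, at 0.983 (set 1) and 0.807 (set 2). It was 1.195 and 1.262 with etomoxir, and 1.042 and 1.007 with etomoxir + SB204990.

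An intronic interval nearest to Csgalnact1, which encodes a chondroitin sulfate transferase, had a higher signal. Its share in ppm was 21.6, 19.4 and 21.9 in V, E and ESB of set 1, and 20.3, 22.0 and 24.0 in set 2. With acetate (A, EA and ESBA) set 1 gave 14.7, 14.9 and 16.8 and set 2 gave 14.7, 15.9 and 18.2. The values with acetate were the lower ones, as in every member by selection, and the mean log2 ratio was -0.44 (SD 0.07 over 6 pairs). The other members with the 12 lowest mean ratios, -0.56 to -0.44, lay nearest to 4930527B05Rik, Trbv31, Slc8a1, Msl3l2, Gm26873, Ptprz1, Antxr2, Gm12519, Gm47939 and Nol4. None of the 12 covered a start site, and their mean scaled signals were 50.8 to 164.

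The 8 members with the highest signal had mean log2 ratios of -0.17 to -0.03, all above the median member. Both of the strongest lay around the non-coding gene Gm49498 on chromosome 15, upstream of the Myc and Pvt1 genes. The first, at chr15:61523060-61548689, held 714, 647 and 644 ppm in V, E and ESB of set 1 and 679, 667 and 622 in set 2. With acetate it held 688, 618 and 617 in set 1 and 665, 648 and 618 in set 2, so that the groups overlapped across backgrounds although each ratio was below 1, and the mean log2 ratio was -0.04 (SD 0.02). An intronic interval nearest to Pvt1 had a mean log2 ratio of -0.11. Intervals covering the start sites of Endod1 and Itgb2, the integrin beta 2 gene, had mean log2 ratios of -0.11 and -0.03, and intervals nearest to Kirrel3os and Rasgrp3, which covered no start site, had -0.08 and -0.10. A further one named AC149090.1 lay on an unplaced scaffold, at -0.17, where reads may be shared with near-identical copies.

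Genes of cholesterol synthesis and uptake were examined as 1 of 17 lists, and had the highest share of members by the full rule. Without the pair that stood apart the histone cluster list had a higher share (13 of 28 intervals against 12 of 30), and in set 1 alone the histone (17 of 28) and ribosomal protein (46 of 73) lists did (against 15 of 30). Cells make cholesterol from cytosolic acetyl-CoA through mevalonate, and the transcription factor SREBP-2 sets the level of these enzymes. Of 30 kept intervals assigned to 22 genes of cholesterol synthesis and uptake, 7 were members (23.3%, beside 5.12% of all kept intervals) and 1, an intronic interval also assigned to Fdft1, gained share in all 6 pairs. The median of the mean log2 ratio over the 30 intervals was -0.10, against 0.01 for all kept intervals. The 7 lay at the start sites of 7 genes: Hmgcs1 (HMG-CoA synthase), Mvd (mevalonate decarboxylase), Idi1 (isopentenyl diphosphate isomerase), Fdft1 (squalene synthase), Sqle (squalene epoxidase), Cyp51 (lanosterol demethylase) and Sc5d (sterol desaturase).

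Idi1 had the lowest mean ratio of the list. Its interval at chr13:8884300-8888064 held 18.8, 15.2 and 20.0 ppm in V, E and ESB of set 1 and 18.5, 19.2 and 21.6 in set 2. With acetate it held 15.8, 12.1 and 14.8 in set 1 and 16.1, 14.6 and 15.2 in set 2. The groups overlapped only through the E library of set 1, and the mean log2 ratio was -0.35 (SD 0.12). In scaled signal the same interval was higher with acetate in all 6 pairs, by ratios of 1.11 to 1.36.

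The interval at Hmgcs1, the first committed enzyme, held 28.8, 29.7 and 33.5 ppm in V, E and ESB of set 1 and 31.2, 32.4 and 29.7 in set 2. With acetate it held 24.9, 24.8 and 27.2 in set 1 and 24.7, 23.9 and 28.8 in set 2. The groups met only at the ESBA library of set 2, which equalled the V library of set 1 at this rounding, and the mean log2 ratio was -0.26 (SD 0.13). Cyp51 followed at -0.34, Fdft1 at -0.24, Sqle at -0.18, Sc5d at -0.11 and Mvd at -0.09, the last 4 being named after their values were seen.

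Other intervals of the list missed the rule in the pair that stood apart alone. Start-site intervals of Insig1 (which retains SREBP in the endoplasmic reticulum) and Msmo1 (a sterol methyl oxidase) had ratios below 1 in the other 5 pairs and ratios of 1.05 and 1.02 in ESBA/ESB of set 2. Without that pair 12 of the 30 intervals lost share in every pair, beside 14.6% of all kept intervals. With GC-centred ratios 8 did (5.17% of all), with shares taken over kept intervals only 11 did (6.11% of all), with a ratio below 0.95 in every pair 2 did (1.59% of all), and on spike-in scaled values 0 did (0 of all). The interval at Srebf1, which encodes SREBP-1, was not a member, with a mean log2 ratio of 0.12. Of the 30 intervals, 0 passed the limma test for etomoxir or for etomoxir + SB204990, beside 0.689% and 3.85% of all kept intervals.

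**Figure D4:**
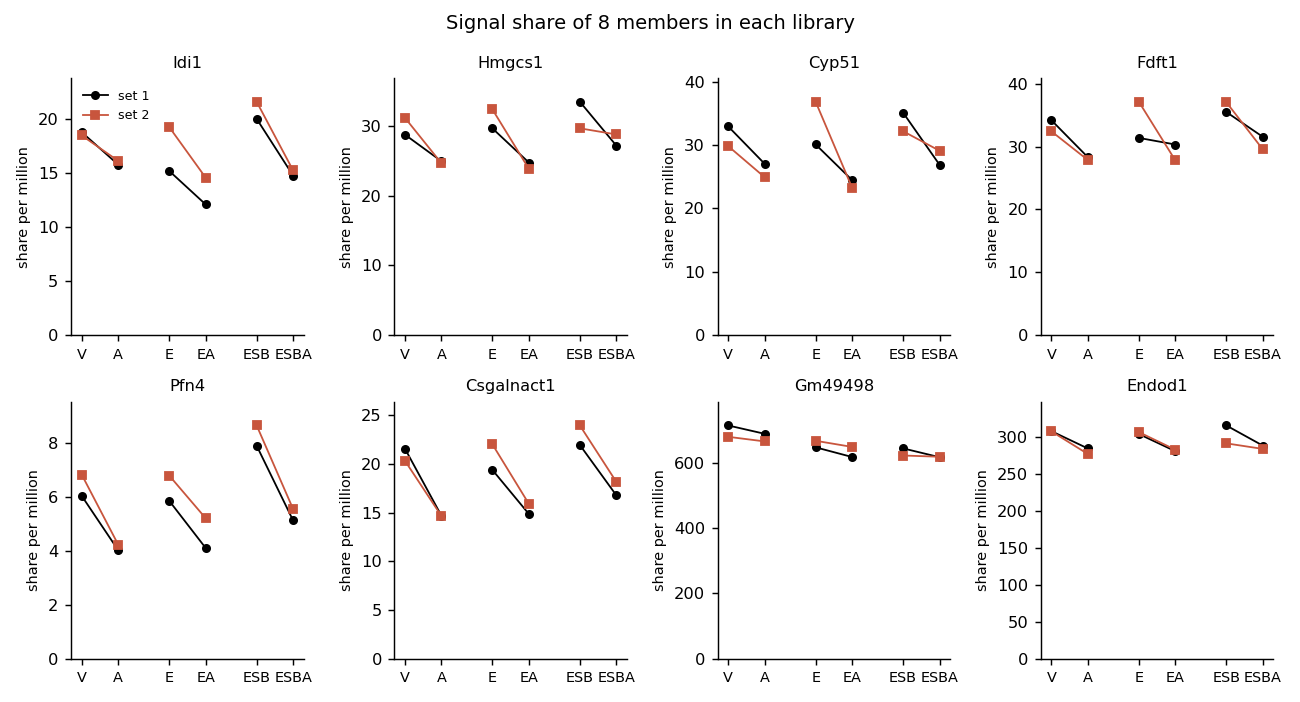
Share of library signal, in ppm, of 8 members in each of the 12 libraries (V vehicle, A acetate, E etomoxir, ESB etomoxir + SB204990, EA and ESBA the same with acetate); lines join the library without acetate to the one with acetate in the same set (set 1 black circles, set 2 red squares), and all axes start at 0. Every line goes down, steeply at Pfn4 and Csgalnact1, less at the cholesterol synthesis genes Idi1, Hmgcs1, Cyp51 and Fdft1, and least at Gm49498 and Endod1.

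The promoters of 3 of these genes are shown because sterol-responsive factors act on such genes through their promoters. Each is the 250 bases before the start site on the strand of the gene, from RefSeq on GRCm38.p6. Capitals mark TCACNCCAC, a form of the sterol response element, and CCAAT, the box bound by NF-Y, on either strand.
Hmgcs1, chr13:119690101-119690350, plus strand: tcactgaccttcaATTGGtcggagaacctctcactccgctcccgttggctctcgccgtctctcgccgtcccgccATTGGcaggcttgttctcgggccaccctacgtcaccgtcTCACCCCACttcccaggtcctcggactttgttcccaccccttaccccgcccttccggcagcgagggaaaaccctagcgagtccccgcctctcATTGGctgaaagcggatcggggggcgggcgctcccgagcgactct
Idi1, chr13:8885356-8885605, plus strand: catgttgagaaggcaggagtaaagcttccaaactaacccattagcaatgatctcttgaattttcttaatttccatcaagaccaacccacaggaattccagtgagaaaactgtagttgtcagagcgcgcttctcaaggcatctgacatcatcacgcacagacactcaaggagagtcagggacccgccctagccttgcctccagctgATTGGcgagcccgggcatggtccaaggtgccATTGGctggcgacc
Cyp51, chr5:4104698-4104947, minus strand: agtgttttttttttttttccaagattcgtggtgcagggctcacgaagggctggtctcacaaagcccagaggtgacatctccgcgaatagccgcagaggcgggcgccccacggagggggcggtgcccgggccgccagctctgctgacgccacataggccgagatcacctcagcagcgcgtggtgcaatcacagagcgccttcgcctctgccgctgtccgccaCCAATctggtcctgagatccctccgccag

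Of the 7 genes, 5 had a RefSeq promoter window whose start lay within the member. CCAAT or its complement was present in 5 of these 5 windows, and in 33.9% of all 32851 promoter windows of this length. TCACNCCAC was present in 1, that of Hmgcs1, and in 1.05% of all. Both motifs were searched after the list had been seen to hold members.

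Other metabolic lists held fewer members. Fatty acid synthesis genes had 4 of 36 intervals among the members (11.1%): Elovl5 (an elongase), Scd1 and Fads2 (desaturases) and Lpin1 (a phosphatidate phosphatase), with mean log2 ratios of -0.25, -0.21, -0.18 and -0.18. The median over the 36 intervals was 0.02, beside 0.01 for all kept intervals, and without the pair that stood apart 5 of 36 lost share in every pair, beside 14.6% of all. Respiratory chain genes had 4 of 41 (9.76%, median -0.06): Ndufa5, Cox6c, Ndufa10 and Ndufb9, subunits of complexes I and IV, at -0.32, -0.15, -0.12 and -0.07. Integrated stress response genes had 3 of 34 (8.82%, median -0.01): Stc2, Mthfd2 and Aldh18a1, at -0.31, -0.18 and -0.14. Without that pair 4 of these 34 lost share, again beside 14.6% of all.

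Single members came from 8 further lists, a smaller share in each than the 5.12% of all kept intervals. They lay at or near Mmp3 among 58 extracellular matrix and mesenchymal intervals, Nr4a3 among 49 AP-1 and immediate early, Pdk4 among 39 fatty acid oxidation and PPAR target, and Ndrg1 among 36 glycolysis and hypoxia intervals. The others were Nfkb1 among 57 cytokine and chemokine, Mcm3 among 41 cell cycle, Tcf7l2 among 52 TGF-beta and Wnt, and Hist1h2ac among 28 histone cluster intervals. No member came from the 41 epithelial junction and keratin, 43 NRF2 antioxidant, 19 interferon and antigen presentation, 35 histone acetyltransferase, deacetylase and reader, or 73 ribosomal protein intervals, again beside 5.12% of all. Most of these counts were higher without the pair that stood apart, as was that of all kept intervals. Without it, where 14.6% of all kept intervals lost share, the counts were 7 of 58 extracellular matrix, 7 of 49 AP-1, 4 of 39 fatty acid oxidation, 6 of 36 glycolysis, 8 of 57 cytokine, 8 of 41 cell cycle and 3 of 52 TGF-beta and Wnt intervals. They were then 7 of 35 for the histone acetyltransferase list, 3 of 43 for NRF2, 1 of 41 for the epithelial list and 0 of 19 for the interferon list.

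Histone and ribosomal protein genes gave different counts in the 2 sets. The 28 histone intervals had a median mean log2 ratio of -0.14, lower than that of the cholesterol list, yet only 1 was a member. Without the ESBA/ESB pair of set 2, 13 of them lost share in every pair, as did 20 of the 73 ribosomal protein intervals and 12 of the 41 respiratory chain intervals, beside 14.6% of all kept intervals. All kept intervals gave 22.7% in set 1 alone, and in set 2 alone, where they gave 12.3%, 2 histone and 0 ribosomal protein intervals lost share. At Hist1h1d, the interval of highest signal on this list, the share in ppm was 685, 630 and 703 in V, E and ESB of set 1 and 402, 680 and 365 in set 2. With acetate set 1 gave 630, 409 and 460 and set 2 gave 385, 483 and 552. Among the libraries without acetate, V and ESB of set 2 were low, and the groups overlapped.

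The inhibitor contrasts were tested because they average over both acetate states and are not the contrast that chose the members. They use the same library values as the rule, so shares of members called are not independent of the selection. How far the selection changed these shares was not tested. Each of the 24109 kept intervals was fitted with limma on log2(share in ppm + 0.5), with Benjamini-Hochberg adjustment over all of them. With etomoxir, 14 members had an adjusted p under 0.05 (1.13% of the members, beside 0.689% of all kept intervals). Of these 13 were higher (1.05% against 0.489%) and 1 was lower (0.081% against 0.199%). The median log2 change was 0.03 in the members and 0.01 in all kept intervals. With any 1 library left out the count ran from 6 to 32, the highest without the ESB library of set 2.

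With etomoxir + SB204990, 75 members were called (6.07%, beside 3.85% of all kept intervals). Of these 56 were higher (4.53% against 1.61%) and 19 lower (1.54% against 2.25%), and the median log2 change was 0.01 in the members and -0.01 overall. On spike-in scaled values the split was 7 higher and 8 lower, since the total signal then enters the contrast. Without the ESB library of set 2, 75 were higher and 29 lower. With any 1 library left out the count ran from 29 to 105. Both contrasts share the V and A libraries. For SB204990 added to etomoxir, 0 members and 0% of all kept intervals were called by limma, and edgeR and DESeq2 also called 0. On spike-in scaled values 884 members were called, all lower. That scaling moves every interval of a library alike, and the share of all kept intervals called under it was not counted. At an unadjusted limma p under 0.05 there were 117 members (9.47%) beside 6.28% of all kept intervals.

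Of the 13 members that rose with etomoxir, 3 lay near Pdk4 and Asb4 on chromosome 6. Pdk4 encodes pyruvate dehydrogenase kinase 4, a PPAR target that restrains pyruvate oxidation when fatty acids are burnt. The member assigned to it, at chr6:5580934-5592335, was intergenic, at a distance of -90374 bp from its start site (upstream). Its share in ppm was 20.1 and 26.0 in V, 43.7 and 50.5 in E, and 50.2 and 50.7 in ESB, in sets 1 and 2. With acetate it was 17.1 and 18 in A, 35.4 and 42.5 in EA, and 41.3 and 42.7 in ESBA. Every library with an inhibitor was above every library without one, and within each pair the share was lower with acetate.

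At this interval the log2 change was 1.07 ± 0.09 (SE) with etomoxir (limma adjusted p = 6.0e-05) and 1.18 ± 0.09 with etomoxir + SB204990 (limma adjusted p = 1.7e-05). Both members assigned to Asb4, which encodes an ankyrin repeat and SOCS box protein and neighbours Pdk4, rose too, by 1.00 ± 0.10 and 0.54 ± 0.07 with etomoxir. The stronger of them, at chr6:5423055-5457814, held 164 and 176 ppm in V, 231 and 257 in E, and 265 and 221 in ESB. With acetate it held 129 and 135 in A, 190 and 199 in EA, and 222 and 218 in ESBA. Over the whole list of fatty acid oxidation and PPAR targets, 13 of 39 intervals rose and 0 fell with etomoxir. Of all kept intervals 0.489% rose and 0.199% fell. With etomoxir + SB204990, 17 of the 39 rose and 0 fell, beside 1.61% and 2.25% of all kept intervals. Of these 39 intervals the 1 at Pdk4 was a member (2.56%, beside 5.12% of all kept intervals). In set 2 alone 4 lost share in every pair, beside 12.3% of all, and in set 1 alone 5 did, beside 22.7%.

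An intronic interval at chr14:105612762-105618499, nearest to 9330188P03Rik, had the largest change of the called members. Its share in ppm was 8.08 and 7.53 in V, 20.0 and 19.3 in E, and 21.8 and 22.4 in ESB. With acetate it was 6.66 and 6.90 in A, 18.2 and 17.5 in EA, and 20.0 and 19.8 in ESBA. It rose by 1.30 ± 0.07 with etomoxir (limma adjusted p = 4.0e-06) and by 1.47 ± 0.07 with both inhibitors (limma adjusted p = 6.8e-07). An interval nearest to Gm27204 rose by 0.85 ± 0.08 and 1.17 ± 0.08, with no overlap between libraries with and without inhibitor.

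The single member that fell with etomoxir lay nearest to Olfr874, an olfactory receptor gene, by -0.43 ± 0.08 (limma adjusted p = 0.027), and it was named after its value was seen. It did not pass when the V, A, E or EA library of either set was left out, with adjusted p-values of 0.068 to 0.20, nor with limma without an intensity trend (0.071), median-of-ratios scaling (0.13) or spike-in scaled values (0.32). Among the members of lowest ratio, Trbv31 fell with etomoxir + SB204990 by -0.82 ± 0.16 (limma adjusted p = 0.012), from 14.0 and 14.9 ppm in V to 5.88 and 9.61 in ESB. Without the ESBA library of set 1 its adjusted p was 0.076. Ndrg1, a hypoxia gene, rose by 0.29 ± 0.06 with both inhibitors (limma adjusted p = 0.024), and did not pass when the V, A or ESBA library of set 1 or the ESBA library of set 2 was left out, with adjusted p-values of 0.091 to 0.11.

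**Figure D5:**
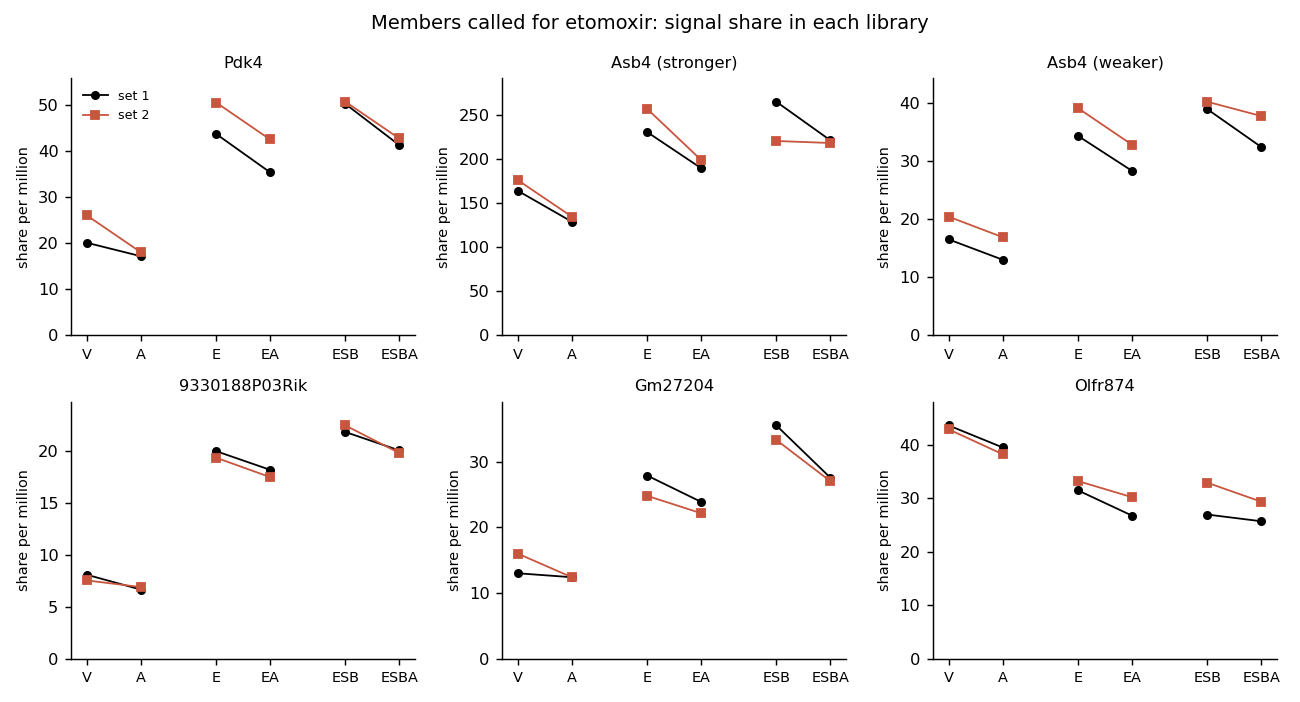
Share of library signal, in ppm, of 6 members called for etomoxir in each of the 12 libraries, drawn as in the plot of 8 members. At the 5 intervals nearest to Pdk4, Asb4, 9330188P03Rik and Gm27204 all libraries with an inhibitor lie above those without, at the interval nearest to Olfr874 they lie below, and each line falls with acetate.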

How the data were processed

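Per the methods of the study, the authors mapped the reads to a joint human and mouse (mm10) genome within nf-core/chipseq and scaled each library by its human spike-in. The deposited values are signal, namely the read count of an interval multiplied by 1 factor per library. The deposited columns of 2 libraries, having a factor of 1, are plain counts. In every library 100% of the values were whole multiples of 1 read (tolerance 0.001), so whole reads could be recovered. Input libraries were not used here. The study's reporting summary names MACS2 in broad mode for calling intervals. Whether they were called on pooled libraries is not given in the sources used here.

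Shares are free of the spike-in factor. The 6 group means were fitted over the 12 libraries with limma 3.58.1 (R 4.3.3) with an intensity trend, on log2(share in ppm + 0.5), which understates changes of low intervals, for intervals with a mean of at least 50, and an adjusted p under 0.05 was a call. p-values measure the spread between the libraries, which may be technical. edgeR 4.0.16 and DESeq2 1.42.0 were run on the recovered reads. Before use, the limma step was tested on simulated data. GC content and motifs were read from RefSeq GRCm38.p6, whose chromosomes fit mm10; 1 member lay on a scaffold without sequence.

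The members, the 17 gene lists and the tests were chosen with earlier results of these data known. Named intervals are the 12 members with the lowest mean log2 ratio, the 8 with the highest mean, up to 4 called members per inhibitor contrast, up to 3 per gene list and those at the edges of the rule. Others were chosen after their values were seen. Nearest genes are the authors' annotation and need not be the regulated genes.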

Additional observations from a re-analysis of the deposited data

How the results depend on the processing

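The count of 1235 members became 383 with a ratio below 0.95, 5475 with set 1 alone, 2973 with set 2 alone, and 0 on spike-in scaled values, and ran from 1491 to 3514 with 1 pair left out, the highest without the etomoxir + SB204990 pair of set 2. It stayed within 1.5 times under the other 10 alternatives of the rule, counting the other 5 pairs left out. Without that pair, with set 1 alone, with GC-centred ratios and with sums over kept intervals, the selected intervals covered protein-coding start sites more often than all kept intervals; the cause was not tested. The percentage with another member within 100 kb (14.1 to 58.5) changed with the number of intervals selected, and the median length moved under 8 of 13 alternatives.

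The 14 members called for etomoxir became 9 with a minimum mean of 10, 56 on spike-in scaled values, 4 with median-of-ratios scaling and 9 with DESeq2. With 1 library left out the count was 6 (without V, A, E or EA of set 1, or EA of set 2), 8 (without V or E of set 2), 9 (without A of set 2 or either ESBA), 30 (without ESB of set 1) or 32 (without ESB of set 2). The 75 called for etomoxir + SB204990 became 15, 20 and 48 on spike-in scaled values, with median-of-ratios scaling and with DESeq2. With 1 library left out they ran from 29 to 105, with changes of over 1.5 times without V of set 1 (38), A of set 1 (34), ESBA of set 1 (29) and ESBA of set 2 (37). Where an arm had 1 library left, its spread was assumed to be that of the other groups. Under the alternatives in this paragraph the share of all kept intervals called was not counted. For SB204990 added to etomoxir the count of 0 became 884, all lower, on spike-in scaled values only, and 0 was the lowest and highest with 1 library left out.

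Libraries with the same suffix did not deviate together throughout (correlations of -0.33 to 0.61 over 15 pairs of groups, median -0.05). These correlations do not show what the suffix stands for. With a replicate block, 19, 91 and 0 members were called. The log2 changes of the named called members kept their direction under every alternative run. Of their values under these alternatives 349 kept their call and 25 lost it, 6 with median-of-ratios scaling, 3 on spike-in scaled values and 2 each without V, A or ESBA of set 1.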
